A study of Drosophila melanogaster with 3 samples.

Results

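Gene-proximal intergenic peaks are reproducible binding regions of a GFP-tagged CG4318 protein whose summit lay outside every annotated gene body, of any biotype, and 501 to 2000 bp from the nearest protein-coding transcription start site (TSS). The choice used position alone, and 270 of 5056 reproducible peaks met it, or 5.34% (95% Wilson interval 4.75 to 5.99). The data are chromatin immunoprecipitation sequencing (ChIP-seq) peak lists from whole Drosophila melanogaster prepupae of pooled sex, with 3 biological replicates of 1 group. All of them carried CG4318 fused at its C-terminal end to enhanced GFP, and an antibody against GFP pulled down the sonicated chromatin. There was no second group, so every comparison is between replicates or between parts of the genome, and the control experiment named in the labels was not analysed here. The labels also state an age in days that is too long for a prepupa, so groups are described by stage alone. Whole animals were used, so a peak cannot be assigned to a tissue.

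The prepupa is the stage at which the steroid hormone ecdysone drives larval tissues toward breakdown and imaginal discs toward adult structures. In the compact fly genome, the stretch just upstream of a promoter often holds enhancers and other elements that bind transcription factors, and a stretch between genes transcribed away from each other can lie upstream of both. CG4318 is annotated in RefSeq only as an uncharacterized protein, so no target gene or motif was assumed. An intergenic summit next to a gene does not show that the gene is regulated from there.

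The reference sequence at the summits of 8 of the 9 strongest of these peaks is printed to show the base composition on which the peaks are centred. The peak near CG30154, stronger than those of fz and ph-d, is left out because sequence of its chromosome arm is not printed here; its window held 20.8% GC and a longest A/T run of 17 bp. Each line holds the plus strand, 5′ to 3′, from 50 bases before to 50 bases after the summit (RefSeq Release 6, the dm6 build), is named by the nearest gene, and has its longest unbroken run of A and T in capitals. The windows lie at chr3R:11780283-11780383 for l(3)neo38, chrX:493960-494060 for CG17896, chr3L:5577897-5577997 for Msr-110 and chr2L:715540-715640 for ds. Those for CG43658, Atf3, fz and ph-d lie at chrX:17562055-17562155, chrX:1277134-1277234, chr3L:14272537-14272637 and chrX:2124036-2124136. All 8 summits were intergenic and upstream of the gene, and the marked runs lie beside the summit base rather than across it. The windows held 27.7% GC (l(3)neo38) to 39.6% GC (Msr-110), and the Msr-110 window was above its flanks, at 34.2%.
l(3)neo38: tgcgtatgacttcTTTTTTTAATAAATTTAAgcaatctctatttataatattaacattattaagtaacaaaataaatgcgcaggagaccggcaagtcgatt
CG17896: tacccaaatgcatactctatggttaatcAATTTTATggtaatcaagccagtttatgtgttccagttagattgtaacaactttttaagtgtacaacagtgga
Msr-110: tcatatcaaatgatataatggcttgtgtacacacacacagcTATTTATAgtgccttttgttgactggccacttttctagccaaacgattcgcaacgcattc
ds: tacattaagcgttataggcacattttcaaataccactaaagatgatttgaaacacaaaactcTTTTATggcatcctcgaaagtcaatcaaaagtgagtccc
CG43658: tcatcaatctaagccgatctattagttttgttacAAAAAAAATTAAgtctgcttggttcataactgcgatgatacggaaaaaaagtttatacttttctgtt
Atf3: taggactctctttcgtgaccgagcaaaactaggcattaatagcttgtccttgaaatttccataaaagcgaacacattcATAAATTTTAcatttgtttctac
fz: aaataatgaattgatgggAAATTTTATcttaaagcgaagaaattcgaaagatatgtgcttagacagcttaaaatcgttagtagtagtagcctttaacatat
ph-d: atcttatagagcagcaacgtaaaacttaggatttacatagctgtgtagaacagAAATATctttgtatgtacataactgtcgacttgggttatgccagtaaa

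A further 4 windows, chosen after their values were seen, mark low and high GC content among these peaks. They lie near kek1 (chr2L:12823695-12823795), soti (chr3R:14382785-14382885), CG43389 (chr3L:3249064-3249164) and CG13405 (chr3L:73802-73902), with the same layout and capitals. The kek1 and soti windows held 15.8% and 16.8% GC, and the CG43389 and CG13405 windows 64.4% and 56.4%. The longest A/T run was 31 bp at kek1 and 4 bp at CG43389, so base composition at the summit varied widely among these peaks.
kek1: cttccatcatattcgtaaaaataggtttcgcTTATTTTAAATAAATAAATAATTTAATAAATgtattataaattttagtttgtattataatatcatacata
soti: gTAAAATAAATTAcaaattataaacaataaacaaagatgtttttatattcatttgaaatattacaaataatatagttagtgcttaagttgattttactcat
CG43389: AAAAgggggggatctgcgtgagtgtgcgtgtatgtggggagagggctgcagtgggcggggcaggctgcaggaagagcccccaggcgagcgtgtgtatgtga
CG13405: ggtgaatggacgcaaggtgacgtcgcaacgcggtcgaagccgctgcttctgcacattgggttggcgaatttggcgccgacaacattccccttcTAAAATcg

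Signal is the authors' own score for each region, on a scale the sources do not state, and is used to describe or rank regions within 1 list. Over the 270 peaks the score in the reproducible list ran from 109 to 925, with a median of 184 and quartiles of 137 and 331. Their ranks ran from 111 to 5044 of 5056, with a median rank of 2682, so they were spread over nearly the whole list but missed its very top. The strongest 500 peaks of the list held 24 of them, or 8.89% (95% interval 6.05 to 12.9), against 9.89% of all peaks. Intergenic summits at most 500 bp from a TSS, 554 in number, had a median score of 250. The 776 intergenic summits over 2000 bp from a TSS had a median of 173, which leaves the gene-proximal peaks between both classes.

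Among peaks with an overlapping region in a replicate's own list, the order of median scores was the same in each replicate. Peaks without such a region were left out. In replicate 3 these were 27.8% of summits at most 500 bp from a TSS and 14.8% of gene-proximal peaks. Of summits over 2000 bp away they were 5.03%. With all peaks counted, the shares held by replicate 3's 5056 strongest regions ran the other way, at 65.5%, 72.6% and 80.9%. In replicates 1 and 2 these shares kept the order of the medians. Against the summits at most 500 bp from a TSS, the log2 ratio of median scores was -0.32, -0.32 and -0.41 in replicates 1, 2 and 3 (mean -0.35 ± 0.05 SD, n = 3, exact two-sided sign-flip permutation p = 0.25). Against the summits over 2000 bp away it was 0.23, 0.20 and 0.19 (mean 0.20 ± 0.02 SD, n = 3, exact two-sided sign-flip permutation p = 0.25). With 3 replicates 0.25 is the smallest p this test can give, so neither difference can pass a threshold of 0.05. Against all other reproducible peaks the log2 ratio was only 0.06, 0.02 and 0.01 (exact two-sided sign-flip permutation p = 0.25, n = 3), and in the reproducible list the ratio of medians was 0.951, on the other side of 1.

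Distance within the range made little difference to strength. The median distance to the TSS was 1192 bp, with quartiles of 753 and 1570 bp. From 501 to 1000 bp there were 107 peaks (39.6%, 95% interval 34 to 45.6) with a median score of 180, on 38.1% of the intergenic bases at 501 to 2000 bp, called eligible bases here. From 1001 to 1500 bp there were 85 (31.5% of peaks, 32.4% of bases) with a median of 191. The last 78, from 1501 to 2000 bp, made up 28.9% of peaks on 29.5% of bases and had a median of 180. Shares of peaks and of bases were close in every bin, and the Spearman correlation of score with distance over the 270 peaks was 0.0301, given as a description. The rule's lower bound fell between ImpE2, whose intergenic summit at 499 bp scored 125, and the peaks of zormin (502 bp, score 139) and ft (503 bp, score 354). At the upper bound the peaks of Dyro (1992 bp, score 181) and CG43098 (1999 bp, score 292) were inside, and that of CG42693 (2015 bp, score 205) was outside.

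**Figure D1:**
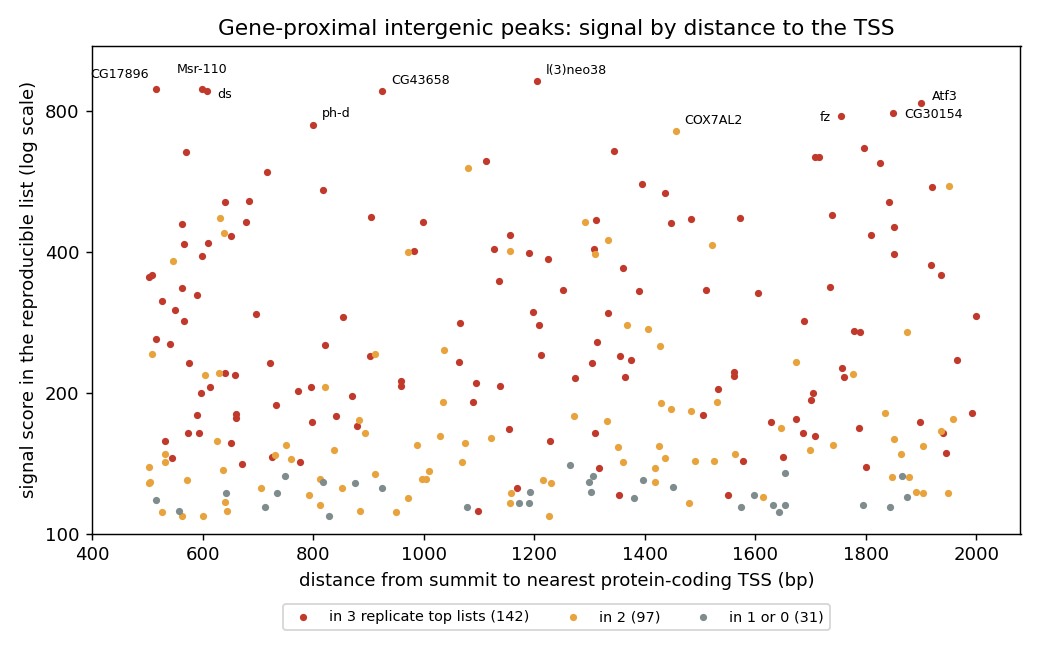
Signal score in the reproducible list (log scale) against the distance from summit to nearest TSS for the 270 peaks, coloured by the number of replicate top lists that held the peak, with the 10 strongest named by nearest gene. High and low scores occur at all distances from 501 to 2000 bp, and most peaks seen in 1 top list or none lie at low scores.

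Peaks were denser here than over the whole of the arms. Eligible bases made up 3.93% of the 6 chromosome arms (5266375 of 133880608 bases), and the 5.34% of peaks found there gave a ratio of 1.36. The same ratio was 4.12 for intergenic sequence at most 500 bp from a TSS, 0.733 for intergenic sequence over 2000 bp away and 0.943 for gene bodies. Among the 30000 candidate regions of the pooled list, most of them outside the reproducible list, 5.54% lay at these distances, close to the 5.34% of reproducible peaks. By arm, 3L held 75 peaks (27.8%, 95% interval 22.8 to 33.4) on 20.4% of eligible bases, whereas 2R held 31 (11.5%, 95% interval 8.21 to 15.8) on 18.6%. Of all reproducible peaks 23.3% lay on 3L and 15.7% on 2R, both within those intervals. Arm 2L held 50 peaks (18.5% on 19.9% of bases), 3R held 68 (25.2% on 24.8%) and X held 46 (17.0% on 15.7%). Chromosome 4 held 0 of 270, with a 95% interval up to 1.40%, on 0.631% of eligible bases.

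Most of the peaks lay on the upstream side of the gene. The summit was upstream of its nearest TSS in 250 of 270 peaks (92.6%, 95% interval 88.8 to 95.2) and downstream, past the end of a short gene, in 20 (7.41%, 95% interval 4.85 to 11.2). Of eligible bases 21.1% lay downstream. Of the 1352 pooled candidates at the same distances that overlapped no reproducible peak, 270 (20%, 95% interval 17.9 to 22.2) were downstream, close to the share of bases and above that of the peaks. This second yardstick was added after the data were seen.

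The orientation of the flanking protein-coding genes showed the same lean toward gene starts. It is largely the same observation, not a separate one. A gap between divergent genes lies upstream of both, and a gap between convergent genes is flanked by gene ends. Between divergently transcribed genes lay 130 peaks (48.1%, 95% interval 42.3 to 54.1), on 35.7% of eligible bases and beside 36.7% of the other candidates (95% interval 34.2 to 39.3). Between genes in tandem lay 131 (48.5%), against 52.9% of bases and 52.8% of the other candidates. Between convergent genes lay 9 (3.33%, 95% interval 1.76 to 6.21), against 11.2% of bases and 10.4% of the other candidates (95% interval 8.91 to 12.2). Strength did not follow this order, with median scores of 183 for divergent, 183 for tandem and 235 for the 9 convergent peaks. The intervals cover counting error over peaks only, and neighbouring peaks are not independent.

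Gene ends were less often close, a measure tied to side and orientation in the same way. The median distance to the nearest end of a protein-coding gene was 3095 bp (range 70 to 99466), against 2175 bp over eligible bases. Within 500 bp of a gene end lay 22 peaks (8.15%, 95% interval 5.44 to 12), against 20% of eligible bases and 15.5% of the other candidates (95% interval 13.7 to 17.6). A gene end was nearer than a TSS for 45 peaks (16.7%, 95% interval 12.7 to 21.6). The gap between the flanking genes had a median of 5583 bp and ran from 437 bp, at the DNAlig3 peak between Sol1 and Cyp9f2, to 512909 bp. A TSS of another gene also lay within 2000 bp for 35 peaks (13.0%), so for these the nearest gene is 1 of at least 2 near candidates. One such summit, nearest to CG17896, lay 515 bp from that gene and 604 bp from CG17778 on the other side.

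**Figure D2:**
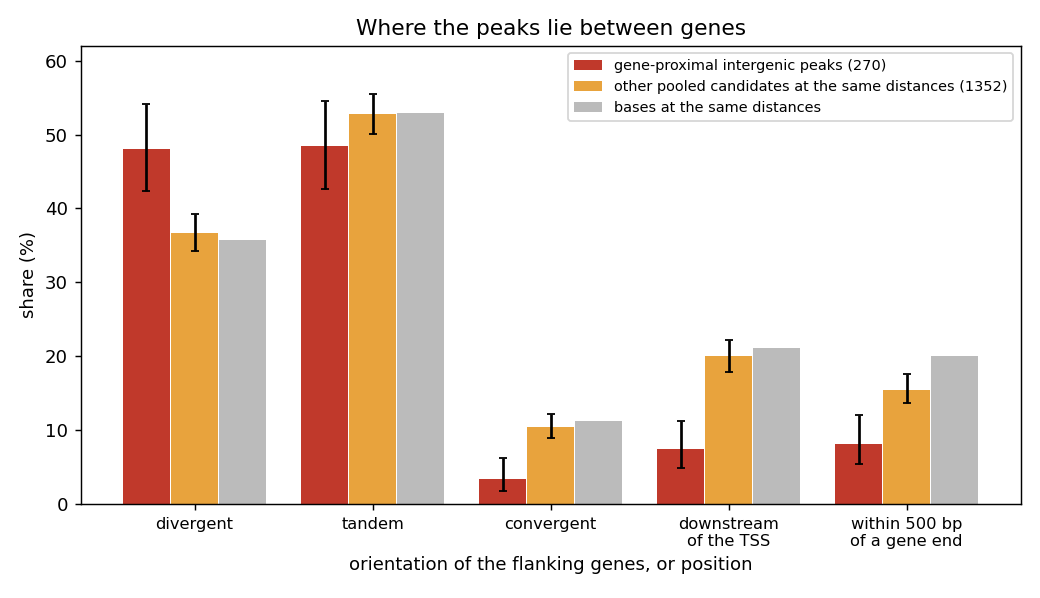
Share (%) of the 270 peaks, of the 1352 other pooled candidates and of bases at the same distances that lay between divergent, tandem or convergent genes, downstream of the nearest TSS, or within 500 bp of a gene end, with 95% Wilson intervals on peaks and candidates. The peaks show 48.1% divergent, 3.33% convergent and 7.41% downstream, and the other candidates stay close to the bases for these 3 features.

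The strongest peak of all, with a score of 925 in the reproducible list, lay 1205 bp upstream of l(3)neo38 and scored 422, 319 and 179 in replicates 1, 2 and 3. The next 2, near CG17896 (score 889, 515 bp) and Msr-110 (888, 599 bp), differed in their order between replicates. Msr-110 ranked 477 in replicate 1 but 85 in replicate 2 and 55 in replicate 3, a wider spread of rank than any other of the 9 strongest peaks. CG43658 (score 882) lay at 925 bp and scored 369, 320 and 203 in the replicates. The Atf3 peak, beside a gene for a basic leucine zipper transcription factor, scored 830 at 1900 bp and 304, 314 and 207 in the replicates. CG30154 followed with a score of 791 at 1850 bp, and 310, 272 and 213 in the replicates.

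Genes of planar cell polarity, the system that orients cells within an epithelium, appear among them by name. A peak 607 bp upstream of ds (dachsous), a large cadherin that binds Fat on the neighbouring cell, scored 883 in the reproducible list and 339, 313 and 225 in replicates 1 to 3. Another ds peak, at 1788 bp, scored 168 (69.0, 59.7 and 36.6 in the replicates). The peaks of ft (fat), its partner cadherin, scored between the ds peaks, at 354 (503 bp; 196, 93.7 and 65.9 in the replicates) and 257 (1314 bp; 122, 64.8 and 53.5). A peak 1756 bp upstream of fz (frizzled), a receptor for Wnt ligands and a core polarity protein, scored 781 and reached 326, 266 and 174. All 3 of these genes had a region in every replicate, but they were grouped here after their names were seen and no count rests on the group. The Wnt ligand gene Wnt4 had a weaker peak, 590 bp upstream, with a score of 179 and replicate scores of 70.7, 61.1 and 44.9.

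Among other signalling genes, dpp (decapentaplegic), which encodes a bone morphogenetic protein ligand, had a peak 1715 bp upstream with a score of 637 and replicate scores of 242, 241 and 166. Several peaks lay in the Enhancer of split complex, most of whose genes respond to Notch. The peak of E(spl)malpha-BFM, which encodes a Bearded family protein, scored 618 at 1825 bp and 241, 214 and 158 in the replicates. The 4352 bp between E(spl)m2-BFM and E(spl)m3-HLH, the latter a basic helix-loop-helix repressor, held 3 peaks. Those nearer to E(spl)m2-BFM both scored 357, at 509 and 1937 bp, and that nearer to E(spl)m3-HLH scored 329 at 1389 bp. Upstream of fng (fringe), a glycosyltransferase that modifies Notch, 2 peaks scored 513 (683 bp) and 470 (1483 bp). A weaker peak lay 1654 bp upstream of Kaz-m1, in the gap that follows E(spl)malpha-BFM, with a score of 115. The E(spl)m2-BFM, Kaz-m1 and fng peaks were chosen after their values were seen.

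Chromatin and metabolic genes followed. ph-d (polyhomeotic distal), a Polycomb group subunit, had 2 summits at 800 and 999 bp, inside 1 region, with scores of 747 and 462. Both overlapped the same replicate regions, which scored 372, 216 and 184, so they are not independent of each other. The fz peaks likewise shared 1 region, with a second summit at 1550 bp that scored 121. In all, 27 of the 270 regions overlapped that of another gene-proximal peak. Hex-A (hexokinase A), a glycolytic enzyme, had summits at 1708 bp (score 636; 287, 230 and 139 in the replicates) and 822 bp (score 253; 114, 55.2 and 96.9). Near stck (steamer duck), an adaptor at integrin adhesions, peaks scored 665 (1796 bp) and 398 (1191 bp). The stronger of them was higher in replicates 2 and 3 (249 and 251) than in replicate 1 (191), unlike most of the strongest peaks.

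The other peaks among the 20 strongest scored between 559 and 723. They lay near COX7AL2, a subunit-like gene of cytochrome c oxidase (723), CG3149 (657), stv, a BAG-domain co-chaperone (654), tara (624), CG34112 (603), Glut4EF (592) and Osi3, a member of the Osiris family (559). All but COX7AL2 and CG34112 had a region in the top list of every replicate. Both exceptions had no candidate region in replicate 3.

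**Figure D3:**
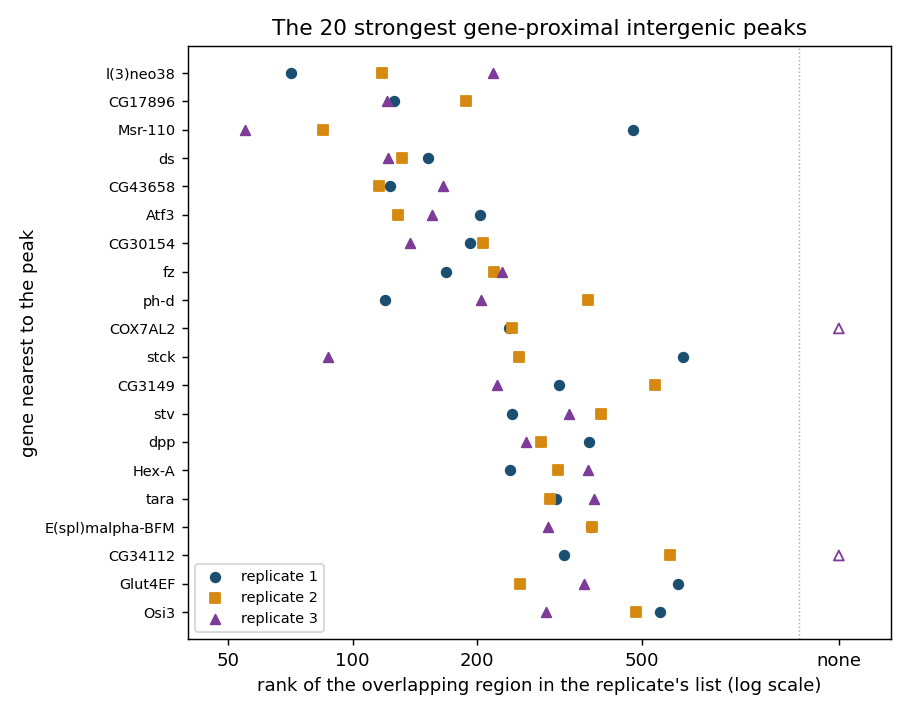
Rank (log scale, 1 is strongest) of the strongest overlapping region in each replicate's candidate list for the 20 strongest peaks, named by nearest gene, with an open symbol at the right where the replicate listed none. The ranks of Msr-110 and stck spread most widely, and the peaks of COX7AL2 and CG34112 have none in replicate 3.

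The 270 peaks had 235 distinct nearest genes, which is 3.99% of the 5884 protein-coding genes with any eligible bases nearest to them. Of these genes 32 had at least 2 peaks, and 3 genes had 3. CG13898 had scores of 435, 434 and 271, Dyro 269, 207 and 181, and NimC3, a gene of the Nimrod receptor family of blood cells, 191, 174 and 142. The NimC3 regions overlapped in a chain and matched the same region in replicate 1 and in replicate 2. The Dyro peaks that scored 269 and 181 also overlapped and shared their replicate regions, so such peaks are not independent. The CG13898 peaks lay on both sides of the gene, 1 upstream and 2 downstream. These genes were also more often marked at the promoter. For 67 of the 235 genes a peak summit was also found at most 500 bp from 1 of the gene's TSSs (28.5%, 95% interval 23.1 to 34.6), beside 8.62% of the 5884 genes. The difference was also present among genes with like numbers of annotated TSSs. Among genes with 1 TSS the shares were 21.2% (33 of 156, 95% interval 15.5 to 28.2) and 5.18%, and among genes with 2 to 4 TSSs 40% (30 of 75, 95% interval 29.7 to 51.3) and 17.2%. Genes with a peak are counted in both sets, and the split by TSS number was added after the data were seen.

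The next reproducible summit was also close, at a median of 1651 bp, against 4792 bp for intergenic summits at most 500 bp from a TSS, 2298 bp for those over 2000 bp away and 2407 bp for all peaks. Within 500 bp another reproducible summit was found for 45 peaks (16.7%, 95% interval 12.7 to 21.6), against 12.6% of all peaks and 15.7% of intergenic summits at most 500 bp from a TSS, the latter within that interval.

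Gene lists for the stage were read against the 3.99% of all genes with eligible bases that were nearest to a peak. The ecdysone response list had 4 of 29 genes (13.8%). These were Ldh, lactate dehydrogenase (score 212, 959 bp), Blimp-1, an ecdysone-inducible repressor (147 and 111, at 731 and 526 bp), and the nuclear receptor genes Eip75B (142, 532 bp) and Eip78C (114, 1078 bp). All of these scores but that of Ldh lay below the median of 184. Eip75B scored 77.9, 50.6 and 20 in replicates 1 to 3. Eip78C had no candidate in replicate 1 and scored 48.0 and 24.0 in the others. Both also made up the 2 of 13 nuclear receptor genes (15.4%). shd (shade), the cytochrome P450 that converts ecdysone to its active form, had peaks at 516 bp (score 260; 144, 75.1 and 43.4 in the replicates) and 1365 bp (216; 116, 76.5 and 32.3). With Cyp6v1 (120, 1874 bp) it gave 2 of 27 P450 genes (7.41%).

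The glycolysis list had 2 of 5 genes, Hex-A and Ldh, and the Polycomb and trithorax list 3 of 11 (27.3%). The latter were ph-d, lola, a BTB zinc finger gene (score 535, 1437 bp; 176, 202 and 152 in the replicates), and jing (251 and 109). These lists hold so few genes with eligible sequence that 1 gene moves the share by many points. Of the signalling list 3 of 38 genes were nearest to a peak (7.89%), namely fz, dpp and Wnt4. Of the adhesion and axon guidance list 4 of 38 were (10.5%), namely ds, ft, 18w (242) and Tollo (112), the last 2 being Toll-like receptor genes. The cuticle list had 4 of 80 (5.0%), led by Cpr49Ah (418, 609 bp) and Cpr50Ca (279, 1368 bp).

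The homeobox list had 2 of 60 (3.33%), with E5 at 151 (837 bp) and the Hox gene Dfd at 112 (558 bp), both below the median score. The helix-loop-helix list had 2 of 30 (6.67%), E(spl)m3-HLH at 329 and the growth regulator Myc at 285 (1688 bp). The neural list had 1 of 20 (5.0%, nAChRalpha7, an acetylcholine receptor subunit, 145 at 544 bp), the muscle list 1 of 18 (5.56%, sls, a titin-like protein, 217 at 1562 bp) and the core cell cycle list 1 of 12 (8.33%, Cdk4, 218 at 604 bp). Of 8 heat shock, 9 autophagy and cell death and 5 insulator genes with eligible bases, 0 were nearest to a peak. No list was tested, and with at most 4 genes in any of them no list is called particular to these peaks. CG4318 itself (X, 13153461 to 13154924, minus strand) lay 177320 bp from the closest gene-proximal peak, that of Prx2 (score 386).

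Support counted within each replicate was close to that of the whole list. A replicate's top list is its 5056 strongest regions, as many as the reproducible list holds, and an overlap of at least 1 bp counted. All 3 top lists held 142 of the 270 peaks (52.6%, 95% interval 46.6 to 58.5), beside 56.6% of all 5056 peaks. Another 97 (35.9%) were in 2 top lists, 29 (10.7%) in 1 and 2 (0.741%), those of chrb and glec, in none. The top lists of replicates 1, 2 and 3 held 84.1%, 83.7% and 72.6% of them (mean 80.1% ± 6.52, SD, n = 3). Against the other reproducible peaks the difference was -0.57, -0.54 and -0.70 percentage points (exact two-sided sign-flip permutation p = 0.25, n = 3), less than 1 point in each replicate, and its sign changed under other definitions of support.

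Replicate 3 differed from the others. It had no candidate region of any rank for 40 of the 270 peaks (14.8%, 95% interval 11.1 to 19.5), beside 16.4% of all peaks, whereas replicate 1 lacked 2 and replicate 2 lacked 0. The share without a candidate in replicate 3 was 27.8% (95% interval 24.2 to 31.7) for intergenic summits at most 500 bp from a TSS and 5.03% (95% interval 3.70 to 6.80) for those over 2000 bp away. The gene-proximal peaks lay between both, and the class with the highest scores was the one most often missing from replicate 3. The strongest peaks without a candidate in replicate 3 were those of COX7AL2 (score 723; 287 and 253 in replicates 1 and 2), CG34112 (603; 258 and 173), Or45b (552; 208 and 170), RasGAP1 (472; 185 and 174) and DNAlig3 (464; 175 and 159). Each was well above the median of 184. The 2 peaks without a candidate in replicate 1, near CG7896 (115) and Eip78C (114), were weak. Of the peaks held by exactly 2 top lists, 57 were missing from that of replicate 3, 20 from that of replicate 1 and 20 from that of replicate 2. Over all peaks 1517 were held by exactly 2 top lists, and these counts were 853, 355 and 309. The lean toward replicate 3 was thus that of the whole list.

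**Figure D4:**
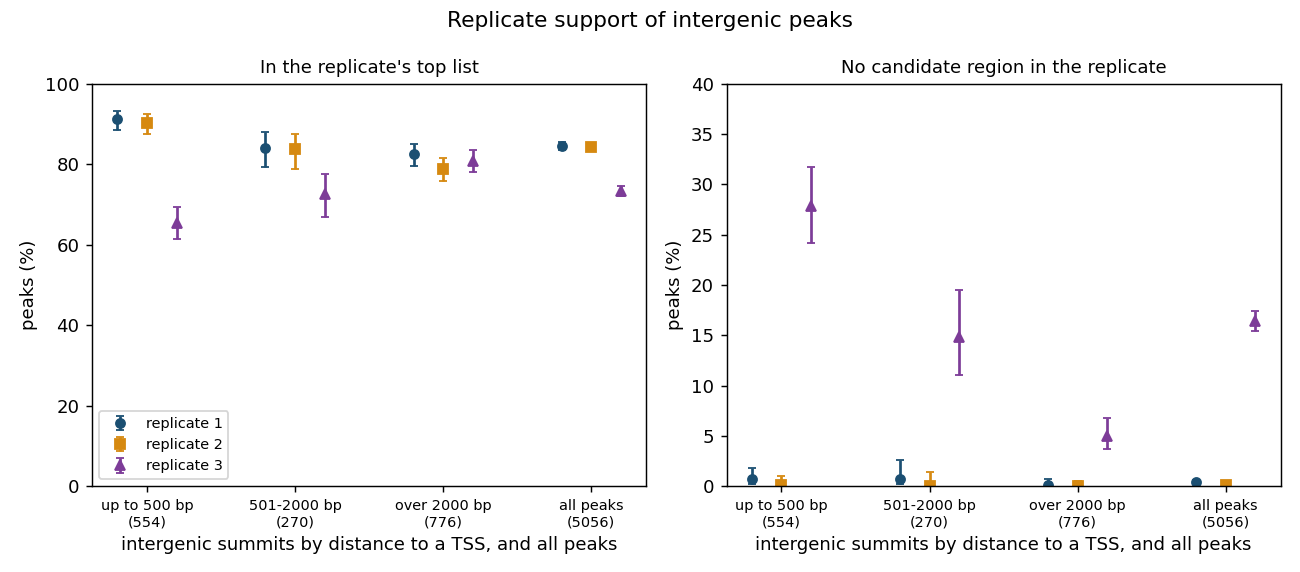
Share (%) of peaks in the top list of each replicate (left) and with no candidate region in it (right), for intergenic summits by distance to the nearest TSS and for all 5056 peaks, with 95% Wilson intervals. Replicate 3 lacks 27.8% of summits at most 500 bp from a TSS, 14.8% of the gene-proximal peaks and 5.03% of those over 2000 bp away.

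Where a candidate existed, its place and score were compared with those of the peak and of the other replicates. The peaks come from a list thresholded for reproducibility between replicates. Agreement in place or score was therefore partly fixed by that choice and is no finding. The median shift between the summit of the peak and that of the replicate's region was 13.5 bp in replicate 1, 16.5 bp in replicate 2 and 34.5 bp in replicate 3. Spearman correlations of scores, given as descriptions across peaks, were 0.763 between replicates 1 and 2 (n = 268), 0.683 between 1 and 3 (n = 228) and 0.765 between 2 and 3 (n = 230). A replicate's score is that of the strongest region overlapping the peak, which can belong to a stronger neighbour. The weak CG43389 peak (112), for example, overlapped regions that scored 247, 211 and 150.

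The peaks centred on a dip in GC content. In the window of 50 bp to either side of the summit the median GC content was 30.7%, against 45.0% in windows 200 bp to either side, and the median difference was -15.1 percentage points. The summit window had the lower GC content in 235 of 270 cases (87.0%, 95% interval 82.5 to 90.5). Over 52146 windows of eligible sequence the median was 39.6%, so the summits were below their surroundings and the flanks above. At each replicate's own summits the median difference was -14.1, -15.8 and -14.6 points (mean -14.9 ± 0.892, SD, n = 3). The dip was not particular to these peaks, since it was -12.4 for intergenic summits at most 500 bp from a TSS, -16.6 for those over 2000 bp away and -14.4 for all peaks.

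**Figure D5:**
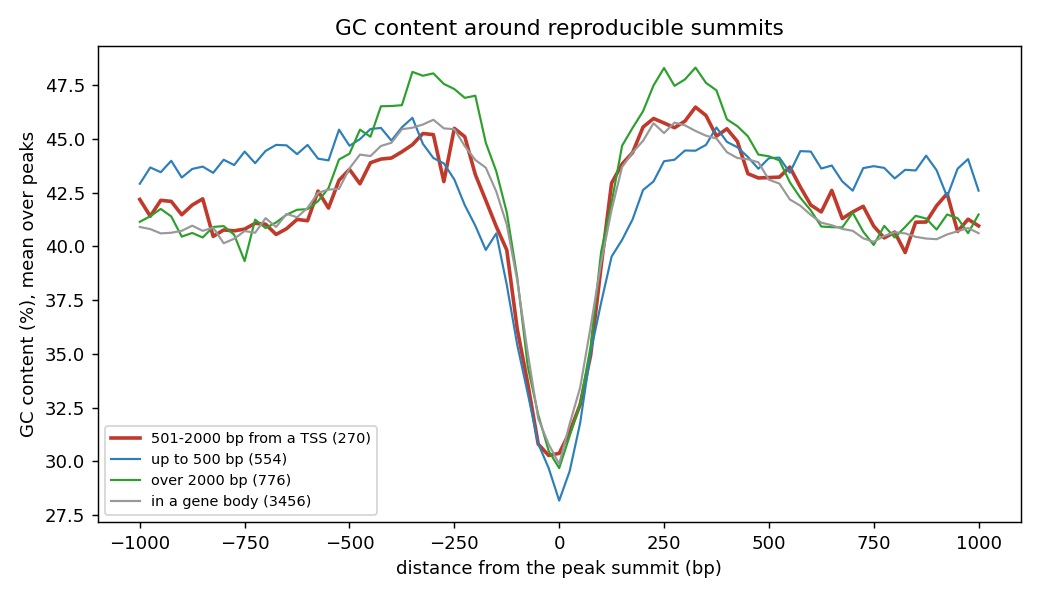
Mean GC content (%) in adjoining windows of 25 bp up to 1000 bp from the summit, for the 270 gene-proximal peaks and 3 other classes of reproducible peak. All 4 curves fall at the summit, where the mean of the gene-proximal peaks was 30.4%, and rise on both sides.

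The longest unbroken run of A and T in the summit window, capitalised in the sequences above, had a median of 10 bp (range 4 to 43), against 7.5 bp at the flanks and 8 bp over eligible windows. The median run was also 10 bp for all peaks and for intergenic summits over 2000 bp from a TSS. It was 11 bp for those at most 500 bp away, so the run was not particular to the gene-proximal peaks. A run of at least 12 bp was present in 106 peaks (39.3%), against 22.8% of eligible windows, and a run of at least 20 bp in 16 (5.93%), against 3.17%. These shares are not given for other peaks. Neither GC content nor run length followed strength, with Spearman correlations with the score of 0.0160 and -0.0674 over the 270 peaks. The ds and ph-d windows, with runs of 6 bp, rank among the strongest.

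Short motifs were counted on both strands in the same windows. TATAAA was present at 24.1% of summits, 6.85% of windows centred 400 bp to either side and 14.3% of eligible windows. ATATTA gave 23%, 5.93% and 11.5%, TTTAAA gave 21.9%, 7.22% and 12.5%, and AAAAAA gave 30%, 16.3% and 21.1%, so all 4 of these A/T-only words were more frequent at summits than in the flanks. Of the words with G and C, GAGAG and CACGTG were less frequent at summits than in the flanks, and the others were rare everywhere. GAGAG, the core of the site of GAGA factor, was present at 7.78% of summits, 18.1% of flanks and 10% of eligible windows. In windows reaching 100 bp to either side it was present at 20.4% of summits, 30.4% of flanks and 19.0% of eligible windows, so only the difference from the flanks kept its direction. CACGTG, the E-box, was at 0 of 270 summits, 2.59% of flanks and 1.24% of eligible windows, and in the wider windows at 4 summits (1.48%), 3.89% of flanks and 2.50% of eligible windows. CAGGTAG, the core of the Zelda site, was at 3 summits (1.11%), 0.741% of flanks and 0.502% of eligible windows. TATCGATA, the core of the DREF site, was at 0.370% of summits, 0.185% of flanks and 0.198% of eligible windows. TGAGTCA, the AP-1 site, was at 0.370%, 0.185% and 0.857%. No direction should be read from counts this small. The words were not matched for base composition. These shares therefore cannot be told apart from the A/T richness in the GC values and are no evidence of a binding site. The summits of all 5056 peaks gave 25.2% for TATAAA, 23.7% for ATATTA, 23.5% for TTTAAA, 30.1% for AAAAAA and 8.19% for GAGAG, close to the gene-proximal ones. They gave 0.435% for CACGTG, 0.297% for CAGGTAG, 0.218% for TATCGATA and 0.554% for TGAGTCA. The shares of the A/T-only words and the low shares of GAGAG and CACGTG were thus not particular to the gene-proximal peaks.

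Candidates outside the reproducible list were selected against for score and replicate support, so their low support is no finding. Of the 1352 other pooled candidates, 1 (0.0740%), nearest to CG16978 at 1661 bp with a pooled score of 107, reached the top list of at least 2 replicates, and 0 reached all 3.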

How the data were processed

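The deposited files are narrowPeak lists, and per the labels they come from 3 biological replicates of 1 group. The authors' signal score of each region and the summit position deposited with it were used. The reproducible list came from thresholding the irreproducible discovery rate, and 30000 candidates stand in each of the pooled and replicate lists. Neither aligner nor peak caller is given in the sources used here. No counts were among these files, so depth is unknown and 95% Wilson intervals cover counting error over peaks only. Nothing beyond the labels says how the replicates were cultured, so their spread may be partly technical.

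Summits of the dm6 list were classed with Ensembl release 115 gene models (BDGP6 annotation 54), whose 5809 transposable elements counted as gene bodies. All annotated TSSs of protein-coding genes were used. Eligible bases are those of the 6 arms that meet the same rule. Each reproducible peak was matched to the strongest overlapping region of a replicate. Shares and medians stand beside those of other classes; the only test was an exact sign-flip permutation over the 3 replicates. Named genes are those nearest to the 20 strongest peaks, up to 2 peaks per gene list, those at the bounds, those without a candidate in a replicate, and CG4318; other genes, list members past the strongest 2 included, were chosen after their values were seen. Of the 16 gene lists, 8 symbols had no match. The peaks, lists, tests and motifs were chosen with earlier results of these data known. Classes and overlaps were tested on simulated data. Alternatives covered annotation, overlap, list length, windows and left-out replicates. Python 3.11.15, numpy 2.4.6, pandas 2.3.3, scipy 1.17.1 and matplotlib 3.10.9 were used.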

Additional observations from a re-analysis of the deposited data

How the results depend on the processing

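Of 74 values of 7 results under 22 other settings, 47 counted as the same, 23 moved and 4 changed sign. Part of this tally was fixed by the settings, so it is no measure of robustness. The share of peaks can only fall when split by distance. The share in every top list can only rise with fewer or longer lists, and only fall with shorter ones. A value counted as the same when it stayed within the error of the main value. For the support difference only the sign had to hold. The sign changes concern the support difference from other peaks (-0.605 points on average), which became 0.559 with TSSs of any biotype, 0.238 with a reciprocal overlap of 50%, 0.491 over all candidates and 1.10 with top lists of 0.5 times the length. No direction should be read from it. With TSSs of any biotype, 362 peaks qualified (249 shared), the share of peaks was 7.16%, the signal ratio 0.920 and the divergent share 41.7%. The share in every top list moved to 81.2% in the stronger 50% of the list, 37.4% with reciprocal overlap, 44.1% with summits within 100 bp, 84.4% over all candidates and 31.9% with the shorter lists. Without 1 replicate it was 60% to 73.7%, the highest without replicate 3, partly because fewer lists are required. The signal ratio (0.951) was 0.969 with overlapping peaks merged and crossed 1 in the stronger 50%, at 1.11. In the replicates' own lists the ratio was 1.04, 1.02 and 1.01, and without 1 replicate the average of the other lists was 1.01 to 1.03. These list values use only peaks with a candidate and the score of the strongest overlapping region. They are thus not the same measure as 0.951. The support difference was -0.637 to -0.555 without 1 replicate, -0.222 in the stronger 50% of the list and -1.53 with summits within 100 bp. Most motif shares rose in wider windows, and GAGAG at summits turned from below to above eligible windows. The GC difference was -16.2 in windows reaching 25 bp and -11.7 in windows reaching 100 bp to either side. Split by distance, 2.12% of all peaks lay up to 1000 bp and 3.22% beyond. The cause was not tested. Leaving transposable elements out of the gene bodies, a choice made after seeing the data, gave 272 peaks and moved no result. A stricter IDR threshold was not run.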
